A study of Mus musculus with 6 samples.

Results

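Polycomb repressive complex 1.6 (PRC1.6) was followed through its 10 subunit genes Pcgf6, L3mbtl2, Mga, Max, E2f6, Tfdp1, Cbx3, Hdac1, Hdac2 and Wdr5, taken by gene symbol, with every probe set annotated to them. They are 10 of the 18194 genes that a probe set names alone, and hold 24 of the 45101 probe sets on the array, 20 of them annotated to 1 symbol and 4 to Cbx3 together with the pseudogene Cbx3-ps5. Expression was measured once per culture on 6 Affymetrix arrays of mouse embryonic stem cells of 129/B6 hybrid background. The Yaf2kd OHT+ group (2 arrays, Yaf2 mutant and Rybp-depleted) and the Yaf2kd OHT- group (2 arrays, Yaf2 mutant with wild-type Rybp) came from clones 3086 and 3087. The Yaf2wt OHT+ group (1 array, Rybp-depleted) and the Yaf2wt OHT- group (1 array, wild type for both genes) came from clone 3031. OHT is 4-hydroxytamoxifen, given at 0.8 µM over 24 hours to deplete Rybp, and the OHT- cultures received none. The sources used here do not name the Rybp allele, any recombinase that OHT acts on or the way Yaf2 was lowered, which the titles call a knockdown and the genotype field a mutant. They place the cultures on irradiated embryonic fibroblasts or on gelatin, without saying which for each sample. Yaf2kd is described by 2 clones and Yaf2wt by 1, so Yaf2 status and clone cannot be told apart. No OHT-treated culture that keeps Rybp is among the samples, so the drug and the loss of Rybp cannot be told apart either. The labels call the Yaf2kd samples biological duplicates, and every p-value rests on the spread among these 6 arrays alone.

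PRC1.6 is one of the variant forms of Polycomb repressive complex 1, which attach ubiquitin to histone H2A through the RING1 proteins and lower transcription. What sets PRC1.6 apart is its DNA-binding part: MGA pairs with MAX on E-box sequences, and E2F6 pairs with the DP1 protein encoded by Tfdp1 on E2F-type sequences. In embryonic stem cells the complex is known for keeping germ cell and meiosis genes silent outside the germ line. RYBP and its homologue YAF2 bind the RING1 proteins in this and other variant complexes and stimulate their activity.

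The deposited values are linear probe-set intensities, and every array has the same median of 102. All 8 embryonic stem cell markers examined lay above that median. Of 8 fibroblast markers, 5 lay above it (Col1a1, Col1a2, Pdgfrb, Thy1 and Postn) and 3 below it (Col3a1, Lum and Dcn). Of 6 primitive endoderm markers, 2 lay above it (Gata4 and Dab2) and 4 below it (Gata6, Sox17, Sox7 and Foxa2). The summed intensity of the fibroblast markers ran from 1444 to 2049 with OHT and from 1144 to 1451 without it. The stem cell markers summed to between 94130.4 and 99213 with OHT and between 83746 and 90255 without it. The endoderm markers summed to between 801 and 924 with OHT and between 848 and 993 without it. No marker was at 0 on any array. The part that any of these shifts play in the results below was not tested. In RNA from whole cultures, fewer cells of a type and less RNA per cell cannot be told apart. Both Rybp probe sets are shared with the pseudogene Rybp-ps. The first had 101, 53.9 and 102 with OHT, against 1785, 2262 and 1997 without it (clones 3086, 3087 and 3031), a difference of -4.61 ± 0.24 (log2 ± SE), in the direction of the labels. Its OHT+ values lay around or below the array median and no detection call was used, so the size of that difference is uncertain. The second had 3443, 2796 and 3247 with OHT, against 211, 336 and 179.9 without it, a difference of 3.75 ± 0.20, against that direction. Both had an adjusted p of 1.12e-04 by limma, which became 0.296 without the intensity trend, and the parts of Rybp that they read are not stated in the sources. OHT+ and OHT- are therefore the labels' names throughout. The brightest Yaf2 probe set had 297, 293, 278 and 238 on the Yaf2kd arrays, against 769 and 816 on the Yaf2wt arrays, the Yaf2kd mean being 34.9% of the Yaf2wt mean.

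Of the 24 subunit probe sets, 19 had a mean above the array median, and each of the 10 genes had at least 1 annotated to it alone among them. The median spread between replicates was 0.18 (log2, residual SD) for probe sets above the array median and 0.74 below it, so the bright probe sets carry the results. The brightest probe set of 1 symbol stands for each gene. Levels are compared only between arrays, since 2 probe sets cannot be set against each other. Values in each list are for clones 3086 and 3087 (Yaf2kd) and then clone 3031 (Yaf2wt).

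The OHT comparison asks whether treatment meant to remove Rybp changes the RNA of the complex it belongs to. Differences are log2 of OHT+ over OHT-, adjusted for Yaf2 status, from limma with Benjamini-Hochberg adjustment over all 45037 probe sets other than the array maker's controls, and a probe set is called at an adjusted p under 0.05. None of the 24 subunit probe sets passed, in either direction, and the lowest adjusted p among them was 0.474. The test called 63 probe sets, 0.14% of the 45037, of which 52 were higher (0.115%) and 11 lower (0.0244%) with OHT. The count of 63 became 101 with the clone as a block and 97 with the dimmer probe sets left out. It became 0 without the intensity trend (2956 at an unadjusted p under 0.05), 14 when the treated Yaf2wt array was left out and 17 when the untreated one was, 21 when the treated culture of clone 3086 was left out and 17 when that of clone 3087 was. No subunit probe set was called in any of these fits. The median difference was 0.080 over the 24 subunit probe sets and 0.035 over the 10 genes, beside -0.0073 over all probe sets.

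The subunits that define the complex came first. Pcgf6, the PCGF protein that gives the complex its identity, had intensities of 3368, 3585 and 3391 with OHT, against 3572, 3717 and 3309 without it. Its 6 arrays lay close together and the groups overlapped. The difference was -0.034 ± 0.081 (SE), with a 95% interval of -0.22 to 0.15. L3mbtl2, a protein with MBT repeats that compacts chromatin, had 1228, 1198 and 1279 with OHT, against 1329.6, 1261 and 1431 without it. It was lower with OHT in each clone, although the groups overlapped, and the difference was -0.12 ± 0.094 (interval -0.33 to 0.094, adjusted p 0.804).

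The DNA-binding pairs were next. Mga, the scaffold of the complex with a T-box and a helix-loop-helix domain, had 2543, 2695 and 3149 with OHT, against 2616, 2705 and 3339.5 without it. Each clone was slightly lower with OHT while the groups overlapped, and the difference was -0.044 ± 0.082 (interval -0.23 to 0.14). Max, its helix-loop-helix partner, was read by a single probe set with 129, 221 and 231 with OHT, against 93.0, 539 and 138 without it. The untreated culture of clone 3087 was the highest array and the untreated culture of clone 3086 the lowest. The difference of -0.022 ± 0.56 therefore has an interval of -1.27 to 1.23, so that changes of Max within it were not detectable here. E2f6, the E2F family member that represses without a transactivation domain, had 897, 807 and 786 with OHT, against 869, 614 and 779.7 without it. Only clone 3087 was apart, its untreated array being the lowest of the 6, and the difference was 0.15 ± 0.15 (interval -0.18 to 0.48). Tfdp1, the dimer partner of E2F proteins, had 4409, 4488 and 4085 with OHT, against 4143, 3685 and 3775 without it. It was higher with OHT in all 3 clones while the groups overlapped, and its difference was 0.16 ± 0.083 (interval -0.023 to 0.35, adjusted p 0.675).

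The chromatin-binding and enzymatic subunits followed. Cbx3 encodes HP1 gamma, a reader of methylated histone H3 lysine 9, and its only probe set of 1 symbol is a faint one with 177, 195 and 129 with OHT, against 151, 150.1 and 94.1 without it. That probe set was at 0.36 ± 0.23 (interval -0.17 to 0.88). The brightest of the 4 shared with Cbx3-ps5 had 7597, 7963 and 8111 with OHT, against 7112, 8769 and 6587 without it, and its difference was 0.085 ± 0.10 (interval -0.15 to 0.32). Which of the RNAs these 4 probe sets detect cannot be told apart here. Hdac1, a class I histone deacetylase, had 9811, 9452 and 10359.8 with OHT, against 9777, 8855 and 9505 without it. Each clone was slightly higher with OHT, by 0.074 ± 0.078 overall (interval -0.10 to 0.25). Wdr5, a WD-repeat protein that also belongs to the histone H3 lysine 4 methyltransferases, had 3109, 3363 and 3399 with OHT, against 3368, 3241 and 3293 without it, with a difference of -0.0054 ± 0.082 (interval -0.19 to 0.18).

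Hdac2, the paralogue of Hdac1, was the subunit nearest to a call with OHT. Its brightest probe set, whose suffix marks probes that match several transcripts, had 5423, 5553 and 5520.4 with OHT, against 4700.4, 4731 and 4664 without it. All 3 OHT+ arrays lay above all 3 OHT- arrays, by 0.21, 0.23 and 0.24 (log2) in the 3 clones. The difference of 0.23 ± 0.075 corresponds to a 1.17-fold higher level (interval 1.04 to 1.31), with an unadjusted p of 0.0131 and an adjusted p of 0.474 by limma. The second Hdac2 probe set, 2969, 2337 and 2400.3 with OHT, against 2069.7, 2229 and 2281 without it, also did not overlap and gave 0.22 ± 0.11 (adjusted p 0.668). Unlike the brightest, it differed between clones, with 0.52 in clone 3086, 0.068 in clone 3087 and 0.073 in clone 3031, and its value was 0.10 without the treated culture of clone 3086. These 2 are the only ones among the 19 brighter subunit probe sets whose OHT groups did not overlap (10.5%), where 14.3% of all 22060 brighter probe sets did so (6.98% higher and 7.36% lower with OHT). The adjusted p of the brightest probe set lay between 0.309 and 0.857 over the 12 alternative fits.

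**Figure D1:**
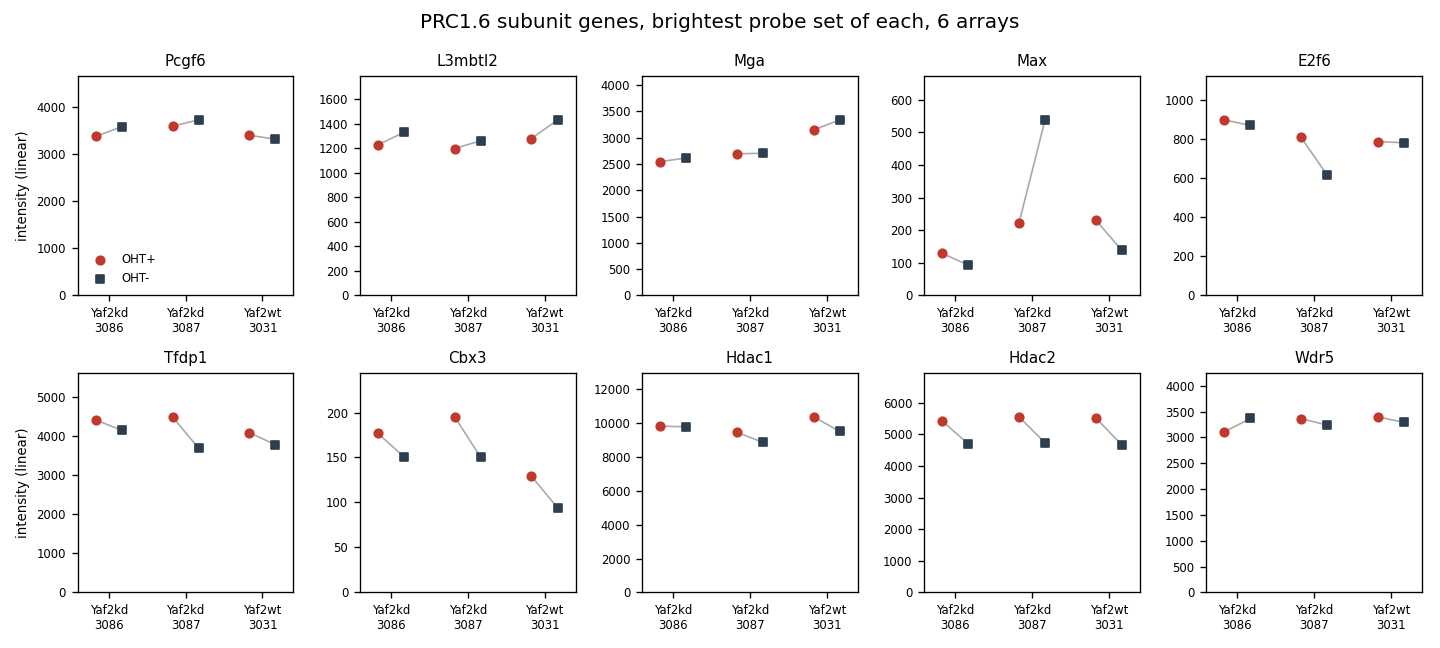
Linear intensity (vertical axes, each starting at 0) of the brightest single-symbol probe set of each subunit gene on the 6 arrays, by clone, with circles for OHT+ and squares for OHT- joined within a clone. Hdac2 is the 1 gene of the 10 whose OHT+ points all lie above its OHT- points, and Max is spread most widely, with 539 in untreated clone 3087.

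The direction of the small differences was also counted within clones. Of the 19 brighter subunit probe sets, 10 were higher with OHT in all 3 clones (52.6%), 3 were lower in all 3 (15.8%) and 6 were mixed. Over all 22060 brighter probe sets, 16.9% were higher and 18.8% lower in all 3 clones. The 10 are 3 probe sets of Cbx3, of which 2 are shared with the pseudogene, 2 of Hdac2 and 1 each of Pcgf6, Mga, E2f6, Tfdp1 and Hdac1, so that they are not independent. None of them passed the test, and the OHT differences of the 19 ran from -0.26 to 0.36. The Pcgf6 and Mga probe sets among them are the dimmest bright ones of these genes, and the brightest of Mga was lower in all 3 clones. By the brightest probe set of each gene, 5 of the 10 genes were higher and 5 lower with OHT. For 8 of the 10 genes, all but Max and Cbx3, the 95% intervals of the brightest probe set together ran from 0.797-fold to 1.40-fold, which does not show that they did not differ. Other bright probe sets of these genes had wider intervals, from 0.657-fold to 1.06-fold for the second-brightest of Pcgf6 and from 0.690-fold to 1.58-fold for the dimmest bright one of Mga.

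Where a gene has several probe sets, they did not always run alike. The second-brightest Pcgf6 probe set had 1881, 1326 and 1990.0 with OHT, against 2337, 1809 and 2022 without it, lower with OHT in all 3 clones (-0.26 ± 0.15, adjusted p 0.726). The dimmest Pcgf6 probe set had 636, 701 and 1057 with OHT, against 607, 649.9 and 886 without it and was higher in all 3 (0.14 ± 0.12, adjusted p 0.804). Neither passed, and the transcripts of Pcgf6 that they cover are not stated in the sources. The second-brightest Mga probe set was at -0.13 ± 0.10, lower in both Yaf2kd clones and higher in the Yaf2wt clone. The other Wdr5 probe set was at 0.091 ± 0.11. The 5 dim subunit probe sets, 2 of Mga and 1 each of E2f6, Cbx3 and Hdac2, ran from -1.02 to 0.69 and had groups that overlapped.

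The Yaf2 comparison asks whether lowering Yaf2 changes the same subunits. It sets the 4 Yaf2kd arrays of 2 clones against the 2 Yaf2wt arrays of 1 clone, and since arrays of a clone are not independent its p-values may be too small. The test called 0 of 45037 probe sets (0%), with 4032 at an unadjusted p under 0.05, and Yaf2 itself was at -1.52 ± 0.16 with an adjusted p of 0.163. The count was 1 with the dimmer probe sets left out, that of Yaf2 itself, and 8 when the untreated culture of clone 3086 was left out. No subunit probe set passed, and the 24 had a median of 0.017, beside 0.0020 over all probe sets.

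Among the subunits, 3 brighter probe sets separated the Yaf2kd from the Yaf2wt arrays (15.8% of 19, where 22.5% of all brighter probe sets did, 11.4% higher and 11.1% lower in Yaf2kd). The values for each are given for clone 3086 with and without OHT, clone 3087 with and without OHT, and clone 3031 with and without OHT. Mga had 2543, 2616, 2695 and 2705 on the Yaf2kd arrays, against 3149 and 3339.5 on the Yaf2wt arrays, a difference of -0.30 ± 0.087 (interval -0.49 to -0.10, unadjusted p 0.00689, adjusted p 0.387). All 4 Yaf2kd arrays lay below both Yaf2wt arrays. The second Mga probe set was at -0.18 ± 0.11, with groups that overlapped. The dimmest Pcgf6 probe set had 636, 607, 701 and 649.9 on the Yaf2kd arrays, against 1057 and 886 on the Yaf2wt arrays. It was lower on every Yaf2kd array, with a difference of -0.58 ± 0.12 (interval -0.85 to -0.31, unadjusted p 8.69e-04, adjusted p 0.286), the lowest p of the 24. The brightest Pcgf6 probe set did not share this, at 0.087 ± 0.086 (interval -0.11 to 0.28). The faint Cbx3 probe set had 177, 151, 195 and 150.1 on the Yaf2kd arrays, against 129 and 94.1 on the Yaf2wt arrays and was at 0.60 ± 0.25 (adjusted p 0.535), while the brightest of the shared Cbx3 probe sets was at 0.10 ± 0.11.

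**Figure D2:**
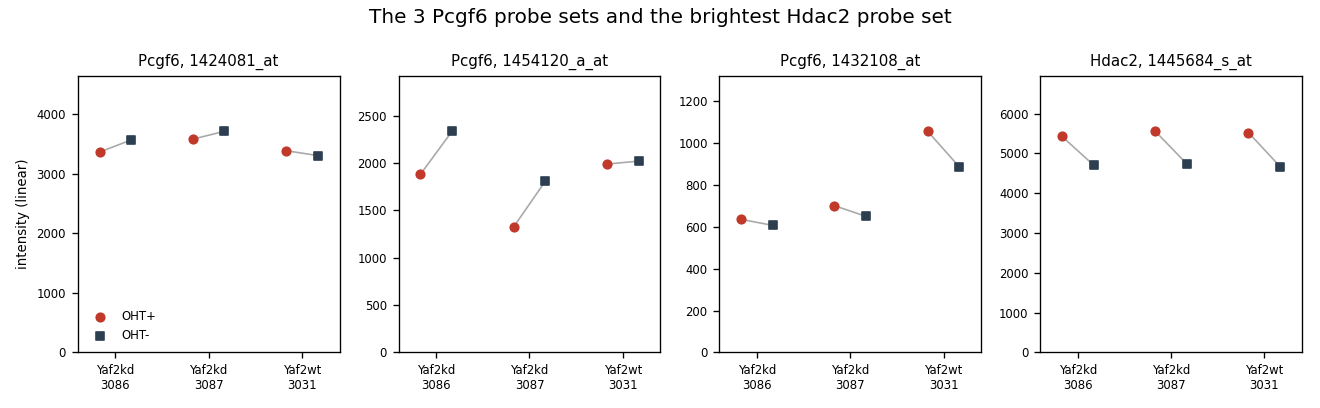
Linear intensity (vertical axes from 0) of the 3 Pcgf6 probe sets and the brightest Hdac2 probe set on the 6 arrays, by clone, with circles for OHT+ and squares for OHT-. The dimmest Pcgf6 probe set (right-hand Pcgf6 panel) runs between 607 and 701 on the Yaf2kd arrays and is at 1057 and 886 on the Yaf2wt arrays, whereas the brightest (left-hand panel) overlaps between them.

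The remaining subunits had Yaf2 groups that overlapped. E2f6 was at 0.0099 ± 0.16 (interval -0.34 to 0.36) and Tfdp1 at 0.086 ± 0.088 (interval -0.11 to 0.28). L3mbtl2 was at -0.11 ± 0.10 (interval -0.33 to 0.11). Hdac1 was at -0.068 ± 0.083, Hdac2 at 0.0037 ± 0.079 and Wdr5 at -0.034 ± 0.087, and their intervals together ran from -0.25 to 0.18. Max was at 0.12 ± 0.59 with an interval of -1.21 to 1.45, too wide to read.

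**Figure D3:**
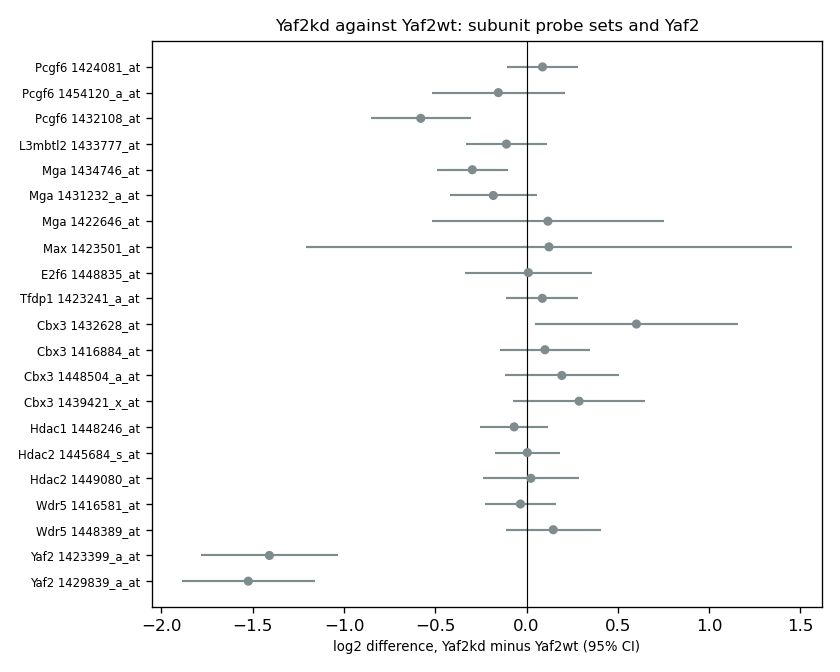
Difference in log2 intensity between Yaf2kd and Yaf2wt arrays, adjusted for OHT (points) with 95% intervals (lines), for the 19 brighter subunit probe sets and the 2 Yaf2 probe sets. None passed the test over all probe sets. The Yaf2 probe sets lie at -1.41 and -1.52, and the subunits between -0.58 and 0.60.

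The difference of the OHT effects asks whether OHT acts on the subunits differently where Yaf2 is lowered. It rests on 2 residual degrees of freedom and on single Yaf2wt arrays that are assumed to vary like the Yaf2kd ones. The test called 0 of 45037 probe sets (0%), with 1077 at an unadjusted p under 0.05, and none of the 24 subunit probe sets reached an unadjusted p under 0.05. Pcgf6 was at -0.10 ± 0.20 (Yaf2kd minus Yaf2wt, interval -0.56 to 0.35) and Hdac2 at -0.025 ± 0.18 (interval -0.45 to 0.40). The second Mga probe set had the lowest p of the 24, with -0.37 ± 0.21 (interval -0.85 to 0.10, unadjusted p 0.108). Max at -1.15 ± 1.24 had an interval of -4.00 to 1.71.

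Germline genes described as PRC1.6 targets were read beside its subunits. This list of 23 genes was drawn up with earlier results of these arrays known, so its rise is no independent evidence. Of its 21 measured members, 8 were called higher and 0 lower with OHT, where 0.115% of all probe sets were called higher. By direction alone 18 were higher and 3 lower, the largest of the lower ones being Tuba3b (-1.74 ± 0.69). Of the 21, 17 had a mean above the array median, and Tuba3b was not among these. The median over the 21 was 1.35 (log2), beside -0.0073 over all probe sets, and the median within clones 3086, 3087 and 3031 was 1.27, 1.6 and 1.34. Syce1, a synaptonemal complex component, had 1198, 1272 and 1079 with OHT, against 248, 238 and 268 without it, and rose by 2.23 ± 0.13 (adjusted p 1.48e-04). Slc25a31, which encodes a testis form of the mitochondrial nucleotide carrier, had 556, 646 and 547 with OHT, against 79.2, 143 and 113 without it, and rose by 2.42 ± 0.24 (adjusted p 0.00456). Every treated array of both genes lay above every untreated one, as for 6.98% of all brighter probe sets. Tex11, needed for meiotic crossovers, rose by 2.39 ± 0.24, and Taf7l, a germ cell homologue of a general transcription factor, by 1.92 ± 0.18. Mael (1.77 ± 0.13) and Ddx4 (1.48 ± 0.11) of the piRNA pathway, the RNA-binding protein gene Dazl (1.59 ± 0.14) and Stk31 (1.34 ± 0.15) made up the 8. Slc25a31 and Tex11 lay near the array median without OHT, whereas Ddx4 (847 to 1025) and Mael (603 to 755) were well above it. Sycp3, another synaptonemal complex gene, was bright on every array and did not pass (0.29 ± 0.09, adjusted p 0.439), nor did the cohesin gene Stag3 (-0.018 ± 0.14). All 8 calls were lost without the intensity trend. Fewer of them were called in some fits on 5 arrays: 3 lacking the treated Yaf2wt array and 4 lacking the untreated one. Lacking either treated Yaf2kd array, 5 were called. Lacking either untreated Yaf2kd array, all 8 were.

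**Figure D4:**
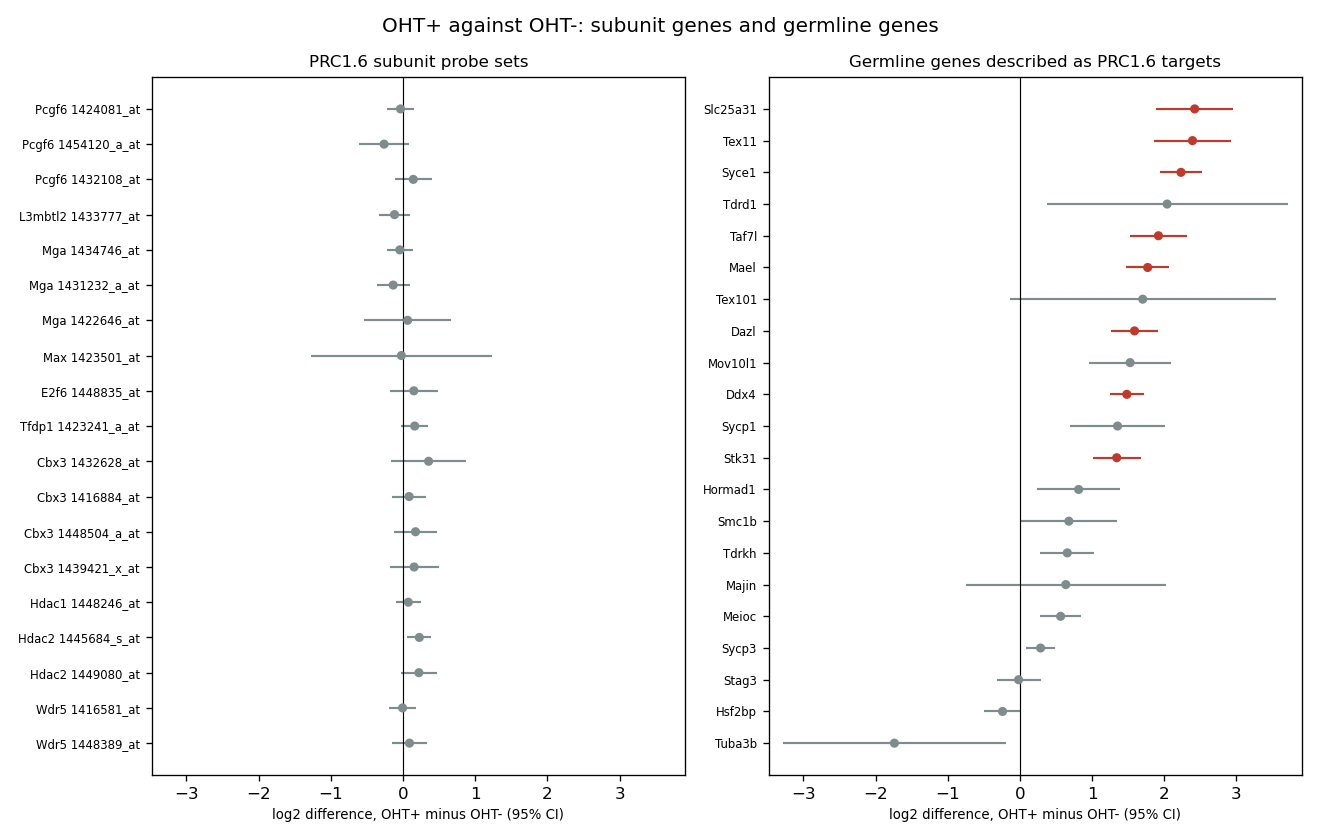
Difference in log2 intensity between OHT+ and OHT- arrays (points) with 95% intervals (lines), on 1 common scale, for the 19 brighter subunit probe sets (left) and the 21 measured germline genes (right). Red marks the 8 genes that passed the test over all probe sets, all of them germline genes and between 1.34 and 2.42, while the subunits lie between -0.26 and 0.36.

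The promoters of the 8 risen genes were searched for the sequences that the DNA-binding subunits are known to prefer, since members of 1 list moved together. The letters searched were CACGTG, the E-box bound by MGA with MAX, which reads the same on both strands, and TCCCGC, an E2F-type sequence, with its reverse complement. The RefSeq windows (build GRCm38.p6) span 300 bases, from 250 before to 50 after a gene's start, and 7 of the 8 genes had at least 1. The E-box was in the windows of 5 of these 7 genes (Ddx4, Mael, Slc25a31, Stk31 and Taf7l), and it was in those of 8.09% of all 27025 genes (7.15% of all 32851 windows). The E2F-type sequence was in the windows of 3 (Ddx4, Mael and Slc25a31), and in those of 22.05% of all genes (20.0% of windows). These same 3 held both, as did 2.65% of all genes (1.99% of windows), with no overlap between the matches. The motifs were also in windows of other genes of the germline list: over the 21 genes of the whole list with windows, 11 held the E-box, 12 the E2F-type sequence and 7 both. The windows of Dazl and Syce1 held neither. The list holds genes described as PRC1.6 targets and was drawn up with earlier results of these arrays known, so its shares of matches are no independent evidence. Whether a match goes with the rise was not tested. The 3 windows of called genes with both are shown as examples, with matches in capitals.
Slc25a31, chr3:40708621-40708920, plus strand: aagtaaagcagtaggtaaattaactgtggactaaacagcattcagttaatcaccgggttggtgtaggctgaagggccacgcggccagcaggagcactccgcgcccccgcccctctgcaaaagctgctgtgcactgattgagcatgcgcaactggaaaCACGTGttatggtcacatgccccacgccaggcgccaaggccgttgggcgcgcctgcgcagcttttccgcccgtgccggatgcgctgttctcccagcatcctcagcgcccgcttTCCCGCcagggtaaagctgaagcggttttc
Ddx4, chr13:112652261-112652560, minus strand: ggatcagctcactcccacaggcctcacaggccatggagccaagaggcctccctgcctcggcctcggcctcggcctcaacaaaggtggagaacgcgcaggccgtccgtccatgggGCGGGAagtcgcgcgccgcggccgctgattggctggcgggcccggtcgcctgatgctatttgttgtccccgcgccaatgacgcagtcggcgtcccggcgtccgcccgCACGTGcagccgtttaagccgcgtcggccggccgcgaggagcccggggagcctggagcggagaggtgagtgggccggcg
Mael, chr1:166238695-166238994, minus strand: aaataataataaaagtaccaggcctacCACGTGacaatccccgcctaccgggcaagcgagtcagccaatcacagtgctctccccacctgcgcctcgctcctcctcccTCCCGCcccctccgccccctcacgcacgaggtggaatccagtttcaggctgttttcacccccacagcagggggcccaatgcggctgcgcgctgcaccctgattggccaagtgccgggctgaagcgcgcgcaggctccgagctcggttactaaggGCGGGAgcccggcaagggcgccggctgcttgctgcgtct
The E-box begins 93 bases before the start of Slc25a31, 29 before that of Ddx4 and 223 before that of Mael. A match describes the letters of the window only and is not evidence of binding.

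Of the subunit genes, 9 of 10 had windows, and the E-box lay in those of Max and Tfdp1 and the E2F-type sequence in those of E2f6, Hdac2, Tfdp1 and Wdr5. These are 22.2% and 44.4% of the 9 genes, where 8.09% and 22.05% of all genes held the 2 sequences. Tfdp1 has 2 overlapping windows, and both searched sequences were in 1 of them. The windows of Max and Hdac2 are printed because Max holds the searched E-box and Hdac2 was the subunit nearest to a call with OHT.
Max, chr12:76962199-76962498, minus strand: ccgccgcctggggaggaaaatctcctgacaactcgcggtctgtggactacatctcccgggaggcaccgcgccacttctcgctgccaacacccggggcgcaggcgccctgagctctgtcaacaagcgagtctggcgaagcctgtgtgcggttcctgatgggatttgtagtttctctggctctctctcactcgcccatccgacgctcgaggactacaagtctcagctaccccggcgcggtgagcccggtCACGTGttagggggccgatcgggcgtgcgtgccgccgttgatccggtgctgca
Hdac2, chr10:36974294-36974593, plus strand: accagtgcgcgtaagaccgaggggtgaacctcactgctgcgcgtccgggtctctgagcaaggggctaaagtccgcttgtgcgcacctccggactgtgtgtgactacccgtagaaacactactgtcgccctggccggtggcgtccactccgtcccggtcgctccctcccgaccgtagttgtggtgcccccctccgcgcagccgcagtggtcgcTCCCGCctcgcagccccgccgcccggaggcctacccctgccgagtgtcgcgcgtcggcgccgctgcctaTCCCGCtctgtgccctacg
In Max the E-box begins 3 bases before the start. In Hdac2 the E2F-type sequence begins 38 bases before and again 31 bases after it. Set beside the values above, Hdac2, Tfdp1, E2f6 and Wdr5 ranged from -0.0054 to 0.23 with OHT by their brightest probe sets. The genes whose windows lacked the E2F-type sequence (Pcgf6, L3mbtl2, Mga, Max and Cbx3) ranged from -0.12 (L3mbtl2) to 0.36 (Cbx3). Whether a match goes with these differences was not tested.

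The partners and paralogues of the subunits were read from 9 further lists with 58 measured genes. None of the 58 passed in the OHT comparison (background 0.14%) or in the Yaf2 comparison (background 0%), and 9 in each had an unadjusted p under 0.05, where 7.99% of all probe sets did with OHT and 8.95% by Yaf2 status (2388 and 2924 of the 22060 brighter ones). With OHT 16 were higher and 42 lower, where 22085 of all 45037 probe sets were higher and 22952 lower. The list medians ran from -0.20 to -0.0029. In the catalytic core of PRC1, the ubiquitin ligase gene Ring1 was at -0.23 ± 0.18 with OHT, and the second ligase gene Rnf2 at -0.24 ± 0.10 in Yaf2kd against Yaf2wt. Among the other PCGF genes, Bmi1 of the canonical complexes was at -0.59 ± 0.22 and Pcgf2 at -0.11 ± 0.16 with OHT, and Pcgf1 of the BCOR-containing complex at 0.29 ± 0.14 and Bmi1 at -0.20 ± 0.23 by Yaf2 status. The histone H3 lysine 9 methyltransferase genes Ehmt2 and Ehmt1 were at -0.14 ± 0.11 and -0.054 ± 0.12 with OHT and at 0.16 ± 0.12 and -0.19 ± 0.13 by Yaf2 status.

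In the same lists, the HP1 genes Cbx5 and Cbx1 were at -0.029 ± 0.11 and -0.0098 ± 0.10 with OHT and at -0.19 ± 0.12 and -0.19 ± 0.10 by Yaf2 status. The MBT-domain genes L3mbtl3 and Sfmbt2 were at -0.48 ± 0.25 and -0.23 ± 0.14 with OHT. Tfdp2, the paralogue of Tfdp1, was at -0.39 ± 0.15 and E2f3 at -0.21 ± 0.13 with OHT, and by Yaf2 status Tfdp2 was at -0.45 ± 0.16 and the retinoblastoma gene Rb1 at -0.32 ± 0.13. Of the genes working with HDAC1 and HDAC2, the NuRD subunits Mbd3 and Chd4 were at -0.37 ± 0.18 and -0.27 ± 0.10 with OHT, and Mta2 and Rcor1 at 0.20 ± 0.11 and -0.19 ± 0.12 by Yaf2 status. Of the WDR5 partners, the methyltransferase genes Setd1b and Setd1a were at -0.61 ± 0.25 and -0.29 ± 0.13 with OHT, and Setd1b and Rbbp5 at -0.46 ± 0.27 and -0.30 ± 0.13 by Yaf2 status. The germline list had 11 members higher and 10 lower by Yaf2 status with 0 called, the largest among its brighter members being Sycp1 (-0.44 ± 0.31) and Sycp3 (-0.39 ± 0.095).

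The genes whose pattern over the 6 arrays was most like that of the brightest Pcgf6 probe set, among 19385 brighter probe sets of 1 symbol, were Ppp1r12c (Pearson r 0.997), Dmtn (0.995) and Podn (0.99). The 6 arrays are 3 pairs from shared clones, Pcgf6 itself varied little, and the highest r of so many comparisons is high in any case, so that this is a description only.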

How the data were processed

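The authors deposited 1 intensity per probe set for each of 6 arrays. Affymetrix Expression Console and RMA are named per the submitters' processing notes, with role and version not given in the sources used here. All values lie between 0.14 and 45795, and all arrays hold the same sorted values, as quantile normalization leaves. They were taken as linear and used as log2 with no pseudocount. Of 45101 probe sets, 34958 were annotated to 1 symbol, 932 to several and 9211 to none, and 64 control probe sets were left out. Identifiers matched the mouse gene reference for 99.4% of the first. The number of arrays limits the precision.

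limma 3.58.1 in R 4.3.3 (lmFit, eBayes with an intensity trend) was fitted over all 45037 probe sets. The OHT and Yaf2 effects came from 1 model of both on all 6 arrays (3 residual degrees of freedom), and the difference of OHT effects from the 4 groups (2). The trend was used because the spread depends on signal. The members, lists, tests and this choice were made with earlier results of these data known. Called means an adjusted p under 0.05. The script was tested on simulated data with known changes. The simulated arrays had independent noise and no clone effect, so that test does not cover p-values from arrays that share a clone.

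Named genes are all members, Rybp and Yaf2, from each other list up to 4 that passed or else the 2 largest differences above the array median, and the 3 genes most like Pcgf6. The 4 shared Cbx3 probe sets were added as probe sets. L3mbtl1, L3mbtl4, Rybp, Tuba3a and Zcwpw1 of the lists have no probe set of 1 symbol among those annotated. Pairing by clone comes from the labels, which name the clone of each array. The deviations of same-clone Yaf2kd arrays from their group means correlated at r 0.15 over the brighter probe sets and 0.03 over all. With 2 arrays in each Yaf2kd group, the deviations of the 2 clones mirror each other, so the 2 pairs are not independent. Alternatives were no trend, no dim probe sets, 1 probe set per gene, 16 added before log2, another centring, the clone as a block, and leaving out each array.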

Additional observations from a re-analysis of the deposited data

How the results depend on the processing

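Of the 219 alternative values of the OHT differences of the 19 brighter subunit probe sets (12 fits), all moved by less than the residual SD, and the lowest adjusted p was 0.309. Of the 219 for the Yaf2 differences, 217 did so (lowest adjusted p 0.163), and all 181 for the difference of OHT effects. Part of these values could not move. Dropping the trend, leaving out dim probe sets, using 1 probe set per gene or taking the clone as a block changes the p-value and not the difference. No subunit probe set was called in any fit. Some values near 0 changed sign, such as that of Max, which ran from -0.64 to 0.81 with OHT over the fits that left out 1 array. The 63 calls of the OHT effect became 0 without the intensity trend (2956 at an unadjusted p under 0.05), 97 with probe sets below the array median left out, and 101 with the clone as a replicate block, the last moving no subunit past the threshold. With 1 array left out they ran from 14 to 53. The Yaf2 effect, 0 calls, gave 1 with the dim probe sets left out and 0 to 8 with 1 array left out, and with the clone as a random replicate block it stayed at 0 (4680 at an unadjusted p under 0.05). The difference of OHT effects gave 0 in each fit by limma (1077 at an unadjusted p under 0.05 in the main setting and 1271 with the replicate block), and could not be fitted without a Yaf2wt array. In the random-block fit of the Yaf2 effect, the estimated correlation of arrays of a clone was -0.088. That fit therefore could not check whether likeness of same-clone arrays made the Yaf2 p-values too small. Centring shifted no array by more than 0.019 (log2). The cause of these shifts was not tested beyond the fewer probe sets or arrays that the fits hold.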

Other observations

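The largest differences among the bright partners of the subunits, chosen by the rule for named genes, did not pass the adjustment. Mnt encodes a repressor that pairs with MAX, as MGA does, and its intensities were 823, 639 and 785 with OHT, against 1046, 1276 and 1256 without it. The treated arrays all lay below the untreated ones, as they did for 7.36% of all brighter probe sets, with a difference of -0.67 ± 0.13 (log2 ± SE, unadjusted p 5.24e-04, adjusted p 0.156 by limma). Mlxipl, a helix-loop-helix protein that pairs with MLX, was the highest of that network at 1.10 ± 0.44, with 185, 213 and 192 with OHT, against 157, 42.4 and 116 without it. Its lowest array was untreated clone 3087, and the OHT+ arrays all lay above the OHT- arrays, as for 6.98% of all brighter probe sets. Mycn, a MAX partner that activates transcription, was at -0.30 ± 0.12 in Yaf2kd against Yaf2wt, and Mlxipl at -0.23 ± 0.46.

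Among the MBT-domain relatives of L3mbtl2, Mbtd1 had 3410.0, 4376, 3383 and 3293 on the Yaf2kd arrays, against 5162 and 5759 on the Yaf2wt arrays, given for clones 3086, 3087 and 3031 with and without OHT. Its Yaf2kd arrays all lay below the Yaf2wt arrays, with a difference of -0.60 ± 0.11 (unadjusted p 4.04e-04, adjusted p 0.267 by limma). Of all brighter probe sets, 11.1% were lower on every Yaf2kd array in the same way. Sfmbt1 was at 0.45 ± 0.24.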
